A study of Mus musculus with 6 samples.

Results

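The proteasome genes of mouse testis were compared between Prss37 knockout and wild-type mice. All array probes other than controls whose deposited gene name reads Psma, Psmb, Psmc, Psmd, Psme, Psmf or Psmg followed by a number were taken, which gave 77 of 41174 probes for 48 genes. Each array measured the whole testis of 1 mouse in a single colour, Cy3, on the Agilent-014868 mouse design. The 3 knockout mice were Prss37-/- and the 3 controls were wild type. All 6 were males of the C57BL/6 background, 6 to 8 weeks old, and the labels name no further allele or treatment. How much of Prss37, a testis protease gene of the trypsin family, had been deleted is not given in the labels. For the knockout samples 1 label field names Prss55 where the title and source name Prss37. P-values below measure the spread between these animals.

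The proteasome is a barrel that cuts ubiquitin-tagged proteins into short peptides. Its 20S core stacks rings of alpha subunits, which gate the entrance, on rings of beta subunits, of which Psmb5, Psmb6 and Psmb7 carry the cutting sites. The 19S cap binds ubiquitin chains, removes them and unfolds the substrate with a ring of ATPases, while 11S and PA200 activators can replace that cap. In male germ cells Psma8 takes the place of Psma7 in many particles, PA200 is abundant, and such particles take part in meiosis and in the removal of histones. Interferon and immune cells bring in the immunoproteasome subunits Psmb8, Psmb9 and Psmb10 in place of Psmb5, Psmb6 and Psmb7.

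Between 69.2% and 71.4% of spots per array were well above background, none was saturated, and the number of arrays limits the precision. Signals below are processed intensities scaled to a shared 75th percentile, and differences are log2, knockout minus wild type, with limma standard errors. Replicates 1 and 2 of each genotype lay on slide 1 and replicate 3 of each on slide 2, so differences are also given within slides where they part. Prss37 itself read 67628, 73863 and 71601 in knockout and 116198, 107918 and 124457 in wild-type testes, a difference of -0.71 (SE 0.07, limma adjusted p = 0.024, or 0.070, 0.12, 0.13 and 0.093 without knockout replicate 1, 2 or 3 or wild-type replicate 1). Its probe was well above background on all 3 knockout arrays, and whether it lies in the deleted part is not known, so it does not settle the genotype labels. Germ cell markers of testis were present: all 10 spermatocyte, 7 round spermatid and 8 elongating spermatid genes on the lists were tested, and none of 5 epididymis genes was above background on any array.

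Partner subunits of the core are similar in sequence, and each probe has to tell them apart. The probe sequences of the Psmb5 and Psmb8 pair and of the Psmb6 and Psmb9 pair are therefore shown, as deposited with the arrays, 5′ to 3′ in the sense of the mRNA. Capitals mark bases that are identical between the partners when their probes are aligned without gaps. The Psmb8 probe shown is the dimmer of the pair of probes for this gene. Positions are those of the array files on mm9, namely chr14:55233161-55233220 (minus strand) for Psmb5, chr17:34337771-34337830 (plus) for Psmb8, chr11:70341014-70341073 (plus) for Psmb6 and chr17:34319174-34319233 (minus) for Psmb9.
Psmb5: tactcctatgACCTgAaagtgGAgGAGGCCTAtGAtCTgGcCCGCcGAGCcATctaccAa
Psmb8: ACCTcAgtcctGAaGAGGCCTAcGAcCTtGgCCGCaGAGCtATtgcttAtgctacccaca
Psmb6: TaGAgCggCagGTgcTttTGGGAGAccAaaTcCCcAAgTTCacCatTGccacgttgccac
Psmb9: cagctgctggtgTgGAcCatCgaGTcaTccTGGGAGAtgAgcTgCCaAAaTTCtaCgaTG
The Psmb5 and Psmb8 probes share 31 of 50 aligned bases, with a longest shared run of 8. For Psmb6 and Psmb9 it is 27 of 48, with a longest run of 7. The probes of Psmd14 and Psmd10 are printed with their results.

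Of the 77 probes, 71 were well above background on all 6 arrays and were tested. The other 6 were left out of the fit. These were 1 probe each of Psma2, Psma3, Psmd14 and Psmf1 and both probes of Psmb11, the beta subunit of the thymus proteasome. All but the Psmf1 probe, which passed on some arrays, were not well above background on any array. Every gene but Psmb11 kept at least 1 tested probe, so 47 of 48 genes were tested, each by its brightest probe.

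None of the 47 proteasome genes passed the test at a limma adjusted p under 0.05, where 467 of 18975 genes on the array did (2.46%, or 1.21% higher and 1.25% lower). At an unadjusted p under 0.05 there were 4, namely Psmd10, Psmg2 and Psme4 with higher and Psmd14 with lower values in knockout, against 23.9% of all genes (11.9% higher and 12.0% lower). The 3 knockout values lay outside the range of the 3 wild-type values in 13 of 47 genes (27.7%), 9 of them higher and 4 lower, where this held for 31.6% of all genes (15.5% higher and 16.0% lower). A call was reached in 1 setting at the 0.05 threshold: with a variance trend and robust fitting Psmg2 had an adjusted p of 0.042, in a fit that called 6.69% of all genes.

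Differences were small. They ran from -0.10 to 0.24, with a median of 0.03 for the 47 genes and -0.002 for all genes tested. The median standard error was 0.045, against 0.063 over all genes, a comparison not matched for signal level. The 95% limma interval, not adjusted for the number of genes, stayed within 0.5 of 0 for 46 of 47 genes, all but Psmb9, against 15768 of 18975 genes. Its bound farther from 0 had a median size of 0.18, against 0.26 over all genes. Psmb8, Psmb9 and Psmd8 had the widest room for a larger change. A difference above 0 was found for 34 of 47 genes (72.3%) against 49.3% of all genes, but for 28 (59.6%) with quantile normalization or the deposited log2 table and for 30 (63.8%) with normexp background correction. Without wild-type replicate 2 it was 30 of 47.

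**Figure D1:**
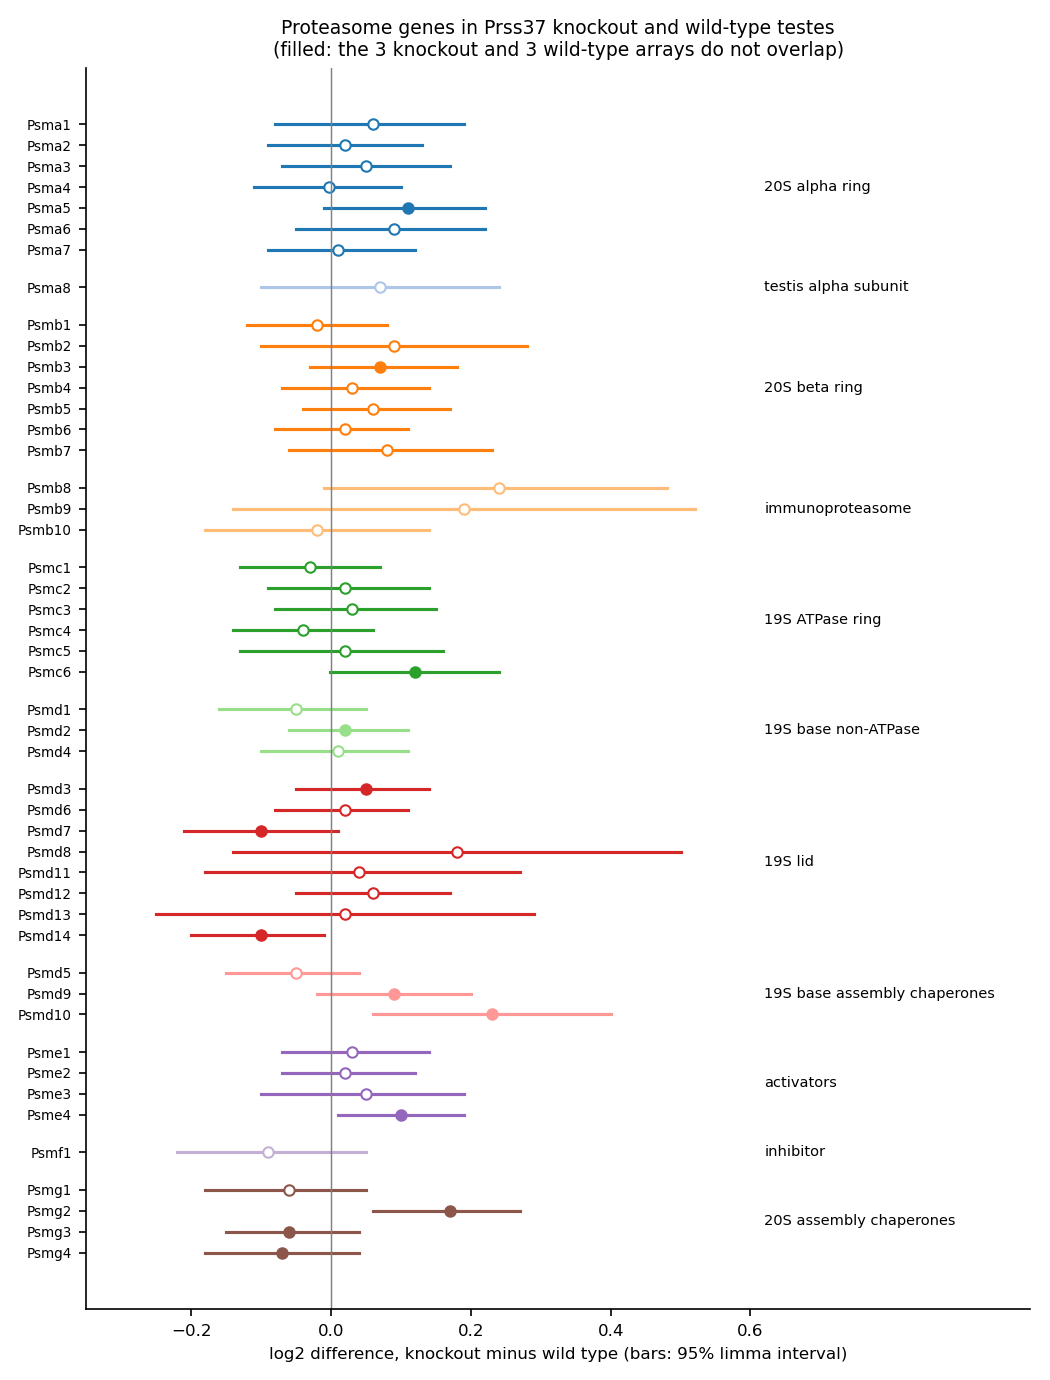
Log2 difference between knockout and wild type (x axis) for the 47 tested proteasome genes, grouped by subcomplex; points are the fitted differences of 3 against 3 arrays, bars the 95% limma intervals, and filled points mark genes whose arrays do not overlap. Most intervals cross 0, and Psmb8 (0.24), Psmd10 (0.23) and Psmb9 (0.19) lie farthest to the right.

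**Figure D2:**
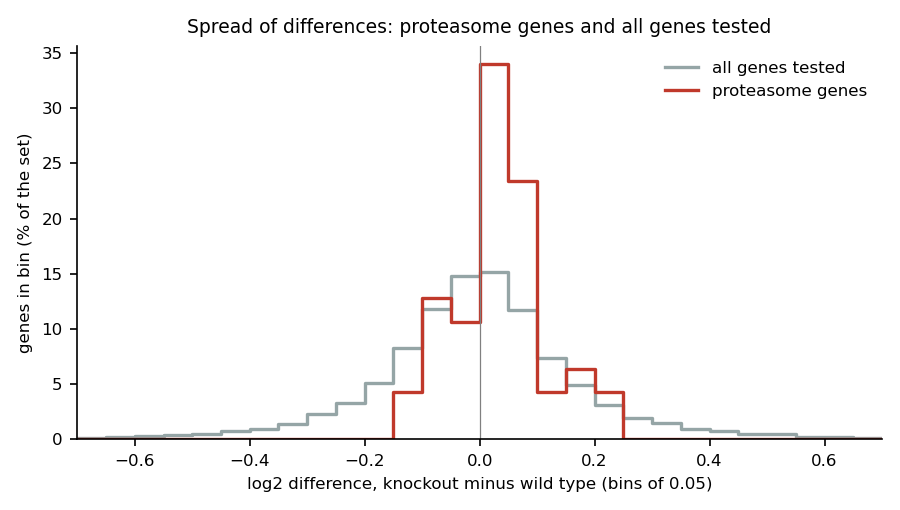
Share of genes (y axis, percent of each set) by log2 difference in bins of 0.05 (x axis, drawn from -0.7 to 0.7) for the 47 proteasome genes and the 18975 genes tested. The bin from 0 to 0.05 holds 34.0% of the proteasome genes, and none lies beyond 0.25 in either direction.

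The 7 constitutive alpha subunits had a median difference of 0.05, and 6 of 7 were above 0. Psma5 read 15053, 15011 and 14337 in knockout and 14266, 13812 and 13166 in wild-type testes. Its knockout arrays were all above the wild-type arrays, by a difference of 0.11 (SE 0.05, interval -0.01 to 0.22, limma adjusted p = 0.24). For Psma6 the values were 55688, 59662 and 56807 against 53154, 51725 and 57359, and the groups overlapped through wild-type replicate 3. Its difference was 0.09 (SE 0.06), with 0.14 on slide 1 and -0.01 on slide 2. Psma1, Psma2, Psma3 and Psma4 lay between -0.003 and 0.06, all with overlapping arrays.

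Psma7, the constitutive alpha4 subunit, read 8002, 8464 and 8129 in knockout and 8150, 7883 and 8319 in wild-type testes, with the groups interleaved. Its difference was 0.01 (SE 0.04, interval -0.09 to 0.12), and the sign turned with normexp (-0.02) and with the mean of its probes (-0.03). Psma8, which replaces it in germ cells, was measured by 1 probe at 41826, 42201 and 41686 in knockout and 42053, 41814 and 36097 in wild type. The other arrays lay close together and wild-type replicate 3 was low. The Psma8 difference was 0.07 (SE 0.07, interval -0.10 to 0.24, limma adjusted p = 0.58), 0.003 on slide 1 and 0.21 on slide 2, and -0.001 without wild-type replicate 3.

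Germ cell markers were measured beside Psma8. The 10 spermatocyte genes had a median difference of -0.03, with 4 above 0 and 6 below. Dmc1, a recombinase of meiosis, was at -0.18 (limma adjusted p = 0.079) and Spo11, which makes meiotic breaks, at -0.10 (0.19). In the other direction Sycp1 was at 0.15 (limma adjusted p = 0.20). Summed signals of that list ran from 185475 to 191494 in knockout and from 188775 to 192540 in wild type, and Syce1 alone, at -0.03, made up 136284 to 142718 of each sum. All 7 round spermatid genes were above 0 with a median of 0.11. Of these 4 were without overlap and higher in knockout, where this held for 15.5% of all genes. Of the 8 elongating spermatid genes 7 were above 0, also with a median of 0.11. The summed round spermatid signals ran from 193661 to 198845 in knockout and from 176337 to 193362 in wild type, without overlap. For the elongating spermatid list they ran from 1925539 to 2158730 against 1917599 to 2053761. In whole testis, fewer cells of a type and less RNA per cell cannot be told apart. None of these 25 genes passed the test, and their part in the Psma8 values was not tested.

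The 7 constitutive beta subunits had a median of 0.06, and 6 of 7 were above 0. The exception was Psmb1 at -0.02. Psmb3, a structural subunit, read 25584, 23790 and 24031 in knockout and 23069, 23527 and 23060 in wild type. Its knockout arrays were all higher, by 0.07 (SE 0.04, adjusted p = 0.36), and its second probe gave 0.06, likewise without overlap. Psmb2 and Psmb4, also structural, were at 0.09 (SE 0.08) and 0.03 (SE 0.04), with overlap.

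Among the catalytic subunits, Psmb5, the chymotrypsin-like site, read 15122, 15195 and 15338 in knockout and 14465, 14071 and 15145 in wild type. The groups overlapped only through wild-type replicate 3, and the difference was 0.06 (SE 0.04, interval -0.04 to 0.17). Psmb6, the caspase-like site, read 40843, 40638 and 39715 against 39200, 40581 and 40108. These values interleaved, at a difference of 0.02 (SE 0.04) that turned to -0.01 under quantile normalization and to -0.02 in the deposited table. Psmb7, the trypsin-like site, read 12572, 11311 and 11405 against 11536, 10700 and 11060. Knockout replicate 1 stood above the other arrays, and the difference was 0.08 (SE 0.06, interval -0.06 to 0.23).

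Among the immunoproteasome subunits, Psmb8 had the largest difference of the 47 genes and Psmb10 one near 0. Psmb8, which replaces Psmb5, read 355, 351 and 296 in knockout and 270, 315 and 263 in wild-type testes at its brighter probe, chr17:34337828-34338152. Knockout replicates 1 and 2 were above all wild-type arrays, and replicate 3 fell among them. The difference was 0.24 (SE 0.10, interval -0.01 to 0.48, limma adjusted p = 0.22), 0.27 on slide 1 and 0.17 on slide 2. The second Psmb8 probe, whose sequence is shown above, gave 338, 339 and 298 against 245, 319 and 277, a difference of 0.22 (SE 0.11). The probes lie side by side in the mRNA and read the same RNA samples.

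Psmb9, which replaces Psmb6, read 334, 302 and 236 in knockout and 239, 272 and 248 in wild type. Knockout replicates 1 and 2 were the highest arrays and knockout replicate 3 was the lowest. Its difference of 0.19 (SE 0.13, interval -0.14 to 0.52, limma adjusted p = 0.45) was 0.32 on slide 1 and -0.07 on slide 2, and it ran from 0.08 to 0.33 as each array was left out. Psmb10, which replaces Psmb7, read 2852, 2950 and 2813 against 2924, 2690 and 3145, so that all knockout arrays lay within the wild-type range. Its difference was -0.02 (SE 0.07, interval -0.18 to 0.14), 0.05 on slide 1 and -0.16 on slide 2, and 0.03 without wild-type replicate 3.

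The exchange of constitutive for immune or testis subunits was compared within arrays, as the shift between genotypes of the log2 ratio of each pair, in 4 pairs. With 3 arrays a group the exact two-sided permutation test cannot go below p = 0.10. Psmb8 against Psmb5 shifted by 0.17, with an exact permutation p of 0.20 (0.53 adjusted over the 4 pairs). The shift was 0.07 with normexp. Psmb9 against Psmb6 shifted by 0.17 (exact p = 0.40, adjusted 0.53), by 0.29 on slide 1 and by -0.06 on slide 2. Psmb10 against Psmb7 shifted by -0.10 (exact p = 0.40, adjusted 0.53). Psma8 against Psma7 shifted by 0.06 (exact p = 0.90, adjusted 0.90), and by -0.03 without wild-type replicate 3. The smallest exact permutation p was 0.20, above the floor of 0.10, which does not show that the ratios were alike.

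**Figure D3:**
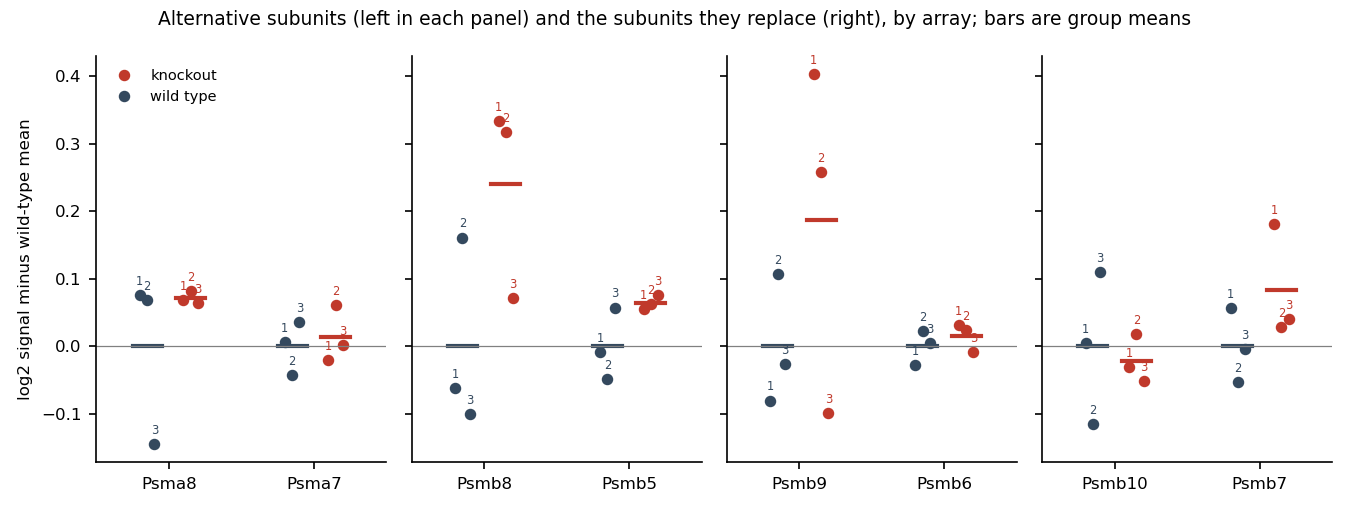
Log2 signal of each array minus the wild-type mean of that gene (y axis) for Psma8, Psmb8, Psmb9 and Psmb10 and the subunits they replace; points are the 3 arrays of a genotype with their replicate number, and bars are group means. Knockout replicates 1 and 2 are high for Psmb8 and Psmb9 and knockout replicate 3 is not, while wild-type replicate 3 is the low array for Psma8.

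Immune cell markers and interferon genes were measured beside these subunits. Of 16 tested macrophage markers 13 were above 0, with a median of 0.18 (0.23 on slide 1 and 0.08 on slide 2), 0 passed in limma and 5 had an unadjusted p under 0.05, all higher, where 11.9% of all genes were higher at that threshold. Their summed signal ran from 28615 to 31255 in knockout and from 22656 to 26832 in wild type, of which Lyz2 alone made up 10131 to 17890. The scavenger receptor gene Cd163 was at 0.36 (limma adjusted p = 0.072) and the growth factor receptor gene Csf1r at 0.16 (0.15). The class II genes of this list, singled out after their values were seen, had, like Psmb9, their highest and lowest values among the knockout arrays. Cd74, the class II chaperone gene, read 3004, 2852 and 1325 in knockout and 1708, 2076 and 1501 in wild type. H2-Aa read 238, 204 and 97.8 against 113, 139 and 117, and H2-Eb1 read 436, 384 and 198 against 264, 310 and 267. In each, knockout replicates 1 and 2 were the highest arrays and knockout replicate 3 the lowest. H2-Ab1 was likewise highest in knockout replicates 1 and 2 and lowest in replicate 3, at 3612, 3482 and 2769 against 2880, 3034 and 3035. Other macrophage markers were instead highest in knockout replicate 3, namely Adgre1, Lyz2, C1qa, C1qb, C1qc and Cd68. Adgre1 read 897, 865 and 1280 in knockout and 772, 728 and 750 in wild type, and C1qa read 1088, 1101 and 1228 against 952, 893 and 1069. The list therefore had no single order of arrays, and the share of all genes with either order was not counted. The 8 lymphocyte markers had a median of 0.0009 and summed to between 5563 and 5783 in knockout and between 5440 and 5835 in wild type. Most of each sum came from Cd3d, at 3097 to 3873, and Cd8b1, at 1252 to 1774, which went in opposite directions. Cd3d was at 0.17 (limma adjusted p = 0.14), without overlap, so the similar sums do not show that the single genes were alike. Among the 8 markers Ms4a1 rose by 0.59 (limma adjusted p = 0.034, or 0.057 with the slide as a block) and Cd8b1 fell by 0.42 (0.033, or 0.049 with that block). Without knockout replicate 1, 2 or 3 or wild-type replicate 1 neither passed, at adjusted p from 0.099 to 0.15, and the partner gene Cd8a was not above background on any array. Ms4a1 also did not pass with the mean of its probes (limma adjusted p = 0.068). Its other tested probe had a limma adjusted p over all probes of 0.23. The part of these cells in the Psmb8 and Psmb9 values was not tested.

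Genes that act beside the immunoproteasome did not pass the test. Of 8 tested class I antigen presentation genes 6 were above 0, with a median of 0.02. In limma 0 passed and 2 had an unadjusted p under 0.05 (1 higher and 1 lower), against 23.9% of all genes. B2m, the shared light chain of class I molecules, read 6590, 6926 and 5616 in knockout and 5089, 5490 and 5276 in wild type. All knockout arrays were higher, by 0.27 (limma adjusted p = 0.14), with 0.35 on slide 1 and 0.09 on slide 2. Nlrc5, an activator of class I genes, read lower, at 119, 129 and 144 in knockout and 157, 153 and 225 in wild type. All its knockout arrays were below the wild-type arrays, at a difference of -0.43 (limma adjusted p = 0.19), with -0.32 on slide 1 and -0.64 on slide 2. Tap1, a peptide transporter gene, was not above background on any array. None of the 7 tested interferon response genes reached an unadjusted p under 0.05 in limma. Irf7, an interferon regulatory factor, was at -1.0 (0.39) through a single high wild-type array, which read 238 where the other 5 ran from 32.1 to 56.0. Ifit1 and Mx1 were not above background on any array.

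In the 19S base, the 6 ATPases had a median of 0.02 with 4 above 0, which became -0.02 with normexp and -0.01 with quantile normalization or the deposited table. Psmc6 read 19860, 18260 and 18408 in knockout and 17045, 17697 and 17346 in wild type. Among the brightest probes of the ATPases it was the only one without overlap, at 0.12 (SE 0.05, interval -0.001 to 0.24, limma adjusted p = 0.21), and its second probe, to a different transcript, gave 0.04 with overlap. Psmc4 read 10993, 10421 and 10310 against 10804, 10939 and 10808, a difference of -0.04 (SE 0.04). Knockout replicate 1 was the highest of these 6 arrays and the other knockout arrays the lowest. The second Psmc4 probe read 2626, 2628 and 2591 against 2842, 2875 and 2635, all lower in knockout, at -0.09 (SE 0.05). Psmc1, Psmc2, Psmc3 and Psmc5 lay between -0.03 and 0.03.

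The base subunits that are no ATPases had differences of -0.05 in Psmd1, 0.02 in Psmd2 and 0.01 in Psmd4. Psmd1, a scaffold, read 4258, 4406 and 4486 in knockout and 4633, 4580 and 4412 in wild type. These values overlapped, with -0.09 on slide 1 and 0.02 on slide 2. Psmd2, a scaffold that also binds ubiquitin, read 40217, 40750 and 40165 against 39666, 39706 and 39944. The knockout arrays were all higher, but only by 0.02 (SE 0.04, interval -0.06 to 0.11), and the sign turned with normexp (-0.02), quantile normalization (-0.005) and the deposited table (-0.004). The second Psmd2 probe gave 0.05 (SE 0.04), also without overlap and above 0 on both slides. For the ubiquitin receptor Psmd4, a second, dim probe had a difference of 0.42 with an SE of 0.38.

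The 8 lid subunits had a median of 0.03, with 6 above 0. The exceptions were the pair that forms the deubiquitinating unit, Psmd14, which cuts the ubiquitin chain off, and its binding partner Psmd7. Psmd14 read 8255, 8506 and 8621 in knockout and 9195, 9090 and 8977 in wild type. All knockout arrays were lower, by a difference of -0.10 (SE 0.04, interval -0.20 to -0.01, limma adjusted p = 0.18), with -0.13 on slide 1 and -0.06 on slide 2. Its second tested probe gave 2173, 1982 and 1965 against 2195, 2155 and 2224, again a difference of -0.10 (SE 0.05), here with overlap between knockout replicate 1 and wild-type replicate 2. The Psmd14 probes match different stretches of the mRNA, at chr2:61635507-61638090 and chr2:61599058-61599117 on the plus strand, and are shown because they gave equal differences.
Psmd14 brighter: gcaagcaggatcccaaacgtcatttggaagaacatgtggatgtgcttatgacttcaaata
Psmd14 dimmer: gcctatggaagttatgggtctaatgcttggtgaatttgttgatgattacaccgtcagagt

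Psmd7 read 9703, 9374 and 9801 in knockout and 9889, 10614 and 10475 in wild type. Its knockout arrays were all lower, by a difference of -0.10 (SE 0.05, interval -0.21 to 0.01, limma adjusted p = 0.25), the same on slides 1 and 2. Its other probes gave -0.19 (SE 0.13), with overlap, and -0.20 (SE 0.06, limma adjusted p over all probes = 0.13), without overlap, so that all 3 Psmd7 probes had negative differences. The probe with -0.20 targets a transcript other than the RefSeq mRNA. Psmd3 was the remaining lid gene without overlap, at 0.05 (SE 0.04). Psmd8 was at 0.18 (SE 0.13, interval -0.14 to 0.50) with wild-type replicate 2 at 36498 where the other 5 arrays ran from 49239 to 51398, and it was 0.02 without that array. Psmd6, Psmd11, Psmd12 and Psmd13 lay between 0.02 and 0.06.

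Psmd5, Psmd9 and Psmd10 are chaperones that hold ATPases while the base is built and are not part of the finished particle. Psmd10, also called gankyrin, read 1343, 1315 and 1362 in knockout and 1033, 1190 and 1208 in wild type. All knockout arrays were higher, by 0.23 (SE 0.07, interval 0.06 to 0.40, 1.17-fold, limma adjusted p = 0.12), with 0.26 on slide 1 and 0.17 on slide 2. As each array was left out the Psmd10 difference ran from 0.16 to 0.27 and its adjusted p was never below 0.098. Psmd9 read 4004, 4040 and 4188 against 3665, 3891 and 3921. These groups did not overlap either, at 0.09 (SE 0.05), but the second Psmd9 probe was at -0.01 (SE 0.09) with overlap. Psmd5 was at -0.05 (SE 0.04). The single probe of Psmd10 is shown since this gene had one of the lowest adjusted p-values. It lies at chrX:137483747-137483806, minus strand.
Psmd10: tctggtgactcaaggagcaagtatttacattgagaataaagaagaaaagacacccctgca

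The chaperones that build the core, Psmg1 to Psmg4, were the group with most differences below 0, at 3 of 4 and a median of -0.06. Psmg2 was the exception. It read 10903, 10429 and 10428 in knockout and 9257, 9719 and 9262 in wild type. All knockout arrays were higher, by 0.17 (SE 0.04, interval 0.06 to 0.27, 1.12-fold), equal on both slides, and its limma adjusted p of 0.089 was the smallest among the proteasome genes. It was 0.11 with the slide as a block. The second Psmg2 probe, elsewhere in the mRNA, read 2978, 2820 and 2889 against 2606, 2771 and 2508, a difference of 0.14 (SE 0.05), also without overlap. Psmg2 binds Psmg1 in the cell as a pair, and Psmg1 was at -0.06 (SE 0.05). Psmg4 read 1489, 1464 and 1498 against 1629, 1509 and 1534, all lower in knockout, at -0.07 (SE 0.04, adjusted p = 0.40). Its partner Psmg3 was at -0.06 (SE 0.04), also without overlap.

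The 4 activators were all above 0, at a median of 0.04. Psme4, which encodes PA200, read 94209, 93793 and 93734 in knockout and 85685, 88534 and 89153 in wild type. The knockout arrays were close together and all higher, by 0.10 (SE 0.04, interval 0.01 to 0.19, limma adjusted p = 0.19). The other Psme4 probes to the RefSeq mRNA gave 0.17 (SE 0.05), without overlap, and 0.05 (SE 0.05), with overlap. A dim probe to another transcript from this locus gave -0.25 (SE 0.08, limma adjusted p over all probes = 0.15), with all knockout arrays lower, so the probes of this gene did not share a sign. The difference in Psme4 ran from 0.02 to 0.11 over 15 other processing settings.

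Psme3, the nuclear activator PA28 gamma, read 4427, 4821 and 4644 against 4774, 4416 and 4276, with overlap, at 0.05 (SE 0.06). Psme1 and Psme2, which form the interferon-inducible PA28 ring, were at 0.03 and 0.02 (SE 0.04 each). Psmf1, an inhibitor of the core in the test tube, read 17674, 18877 and 19222 in knockout and 18921, 19682 and 20678 in wild type. The ranges overlapped, at -0.09 (SE 0.05, interval -0.22 to 0.05, limma adjusted p = 0.39), and its second tested probe gave -0.06 (SE 0.05).

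**Figure D4:**
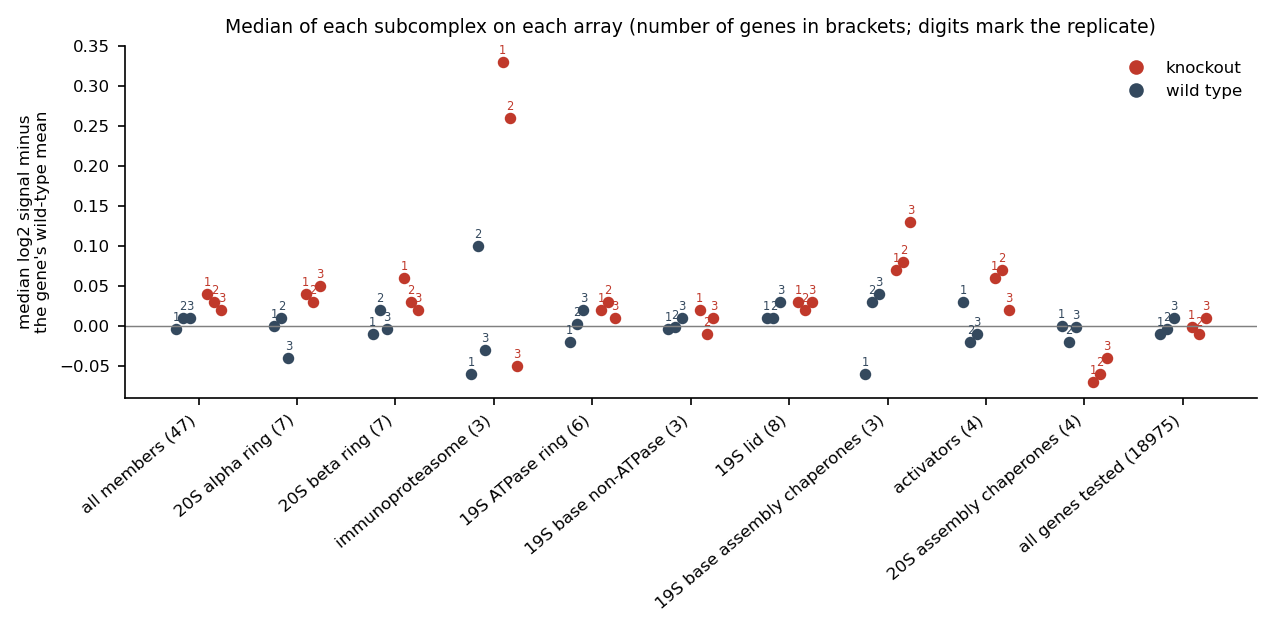
Median over the genes of each subcomplex of the log2 signal minus the wild-type mean of the gene (y axis), on each of the 6 arrays, with replicate numbers. The immunoproteasome medians of knockout replicates 1 and 2 are 0.33 and 0.26 and that of replicate 3 is -0.05. All 3 knockout medians of the 20S assembly chaperones, -0.07 to -0.04, are below those of the wild-type arrays. Those of the 20S alpha ring, 0.03 to 0.05, and of the 19S base assembly chaperones, 0.07 to 0.13, are above the wild-type medians.

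Within arrays the subcomplex medians stayed within 0.13 of the wild-type mean, apart from the immunoproteasome and single genes. Over all 47 genes the array medians were 0.04, 0.03 and 0.02 in knockout and -0.004, 0.01 and 0.01 in wild type. The corresponding medians over all genes tested lay between -0.01 and 0.01. These array medians are a description of 6 arrays and were not tested.

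Genes with several probes allowed the same mRNA to be read more than once on the same RNA. Of 20 proteasome genes with at least 2 tested probes, 15 had differences of 1 sign, where 3897 of 6518 genes on the whole array did (59.8%). In the fit of single probes 0 of 71 passed in limma, where 293 of 28301 did (1.04%), and 8 of 71 had an unadjusted p under 0.05, against 22.5% of all probes. Signs were mixed in Psma7, Psmc2, Psmc5, Psmd9 and Psme4, and in 3 of these the odd probe was to a transcript other than the RefSeq mRNA. Of the 8 tested probes of that kind, the Psmd4 probe was the least precise.

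**Figure D5:**
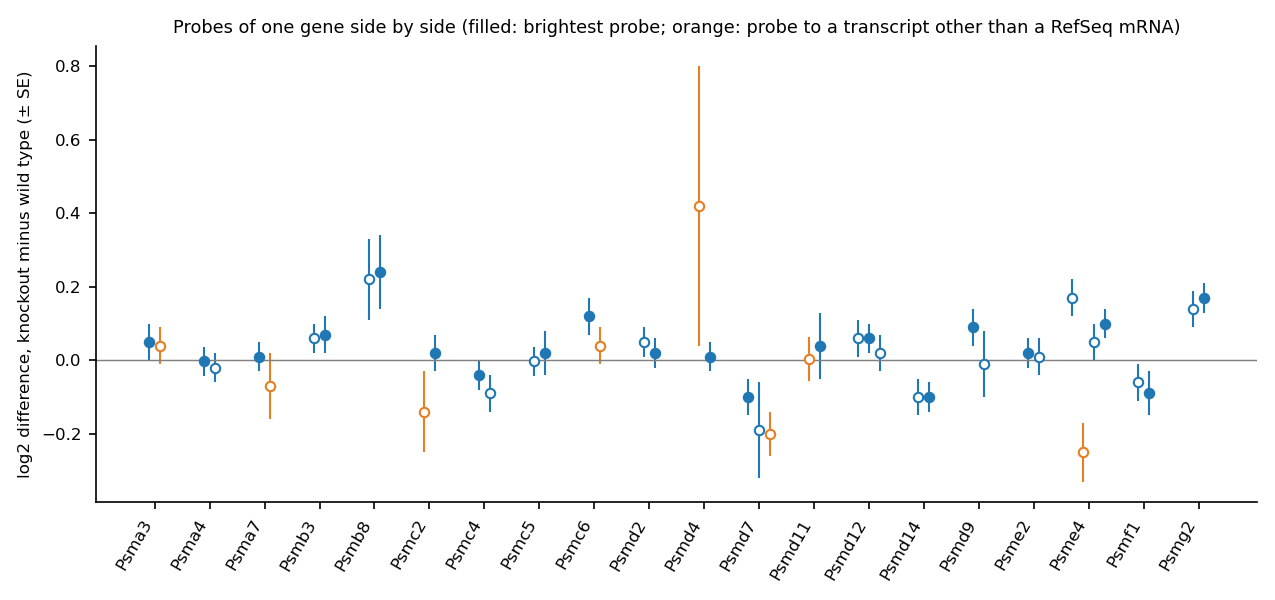
Log2 difference with its standard error (y axis) for each tested probe of the 20 genes that have at least 2 tested probes (x axis); filled points are the brightest probe of the gene and orange points are probes to transcripts other than RefSeq mRNAs. The Psmb8 (0.22 and 0.24), Psmg2 (0.14 and 0.17), Psmd7 (-0.20 to -0.10) and Psmd14 (-0.10 and -0.10) probes keep 1 sign, and Psme4 runs from -0.25 to 0.17.

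Genes that work with the proteasome were described from lists. None of the 13 tested proteasome-associated factors passed in limma, and 3 had an unadjusted p under 0.05, against 23.9% of all genes. Sem1, a small lid subunit outside the Psm names, read 77158, 71760 and 74337 in knockout and 64330, 70148 and 65194 in wild type, a difference of 0.16 (limma adjusted p = 0.14) without overlap. Usp14, a deubiquitinase that sits on the cap, was at -0.16 (0.20), also without overlap. None of the 21 genes for ubiquitin, its activating enzymes and shuttle factors passed in limma. At an unadjusted p under 0.05 there were 4 (3 higher and 1 lower), against 23.9% of all genes. Of the 21 genes 15 were above 0, with a median of 0.04. The shuttle factor Ddi1 was at 0.18 (0.11) and Faf2, an adaptor that extracts proteins from membranes, at 0.17 (0.13), both without overlap. Ddi2 went the other way, at -0.19 (limma adjusted p = 0.19), with overlap.

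The 11 regulators of proteasome genes had a median of 0.02, and none reached an unadjusted p under 0.05 in limma. Nfe2l1, the factor that drives proteasome genes when the particle is impaired, was at -0.03 (limma adjusted p = 0.75). Ngly1, an enzyme that processes it, was at 0.09 (0.39), and Keap1, which restrains the related factor Nfe2l2, at -0.11 (0.31).

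Promoter windows, from 250 bases before to 50 after the start site in RefSeq on GRCm38.p6, were found for 40 of the 48 genes in 43 windows and searched on both strands. The core of the element bound by Nfe2l1 and its relatives, TGACNNNGC, was present in 14.0% of these windows and in 12.4% of all 32851. The 6 genes that held it were Psmb5, Psmb6, Psmc6, Psmd9, Psmd12 and Psme4. CCAAT was present in 32.6%, against 37.4% of all windows, and the interferon-type element, which holds GAAA, any 2 bases and GAAA, in 11.6%, against 3.44%, in Psmb3, Psmd4, Psmd9, Psme1 and Psmg4. Stretches around the TGACNNNGC match, in capitals, are shown for 3 genes to let it be seen in place. They are at chr14:54618024-54618052 (minus strand) for Psmb5, chr14:45329587-45329615 (plus) for Psmc6, where the match is on the opposite strand, and chr5:123228149-123228177 (plus) for Psmd9.
Psmb5 promoter: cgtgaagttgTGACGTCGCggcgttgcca
Psmc6 promoter: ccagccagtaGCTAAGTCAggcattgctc
Psmd9 promoter: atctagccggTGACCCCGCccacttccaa
A match is a description of letters and no sign of binding. The differences of the 6 genes with this core ran from 0.02 in Psmb6 to 0.12 in Psmc6, within the range of all 47.

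The 47 tested genes lay on 16 chromosomes, with 8 on chromosome 11 and 6 on chromosome 2. The probes of Psmb8 and Psmb9 both lie on chromosome 17, at 34337828-34338152 and 34319174-34319233 on mm9.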

How the data were processed

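Samples of whole-testis RNA, 3 per genotype, were grouped by title. The authors deposited 1 scanner output per array with spot intensity values, from which Agilent Feature Extraction had subtracted background. The file headers give its version as 10.7.3.1, and the submitters' processing notes give 10.7. The deposited log2 table has columns with a median of 7.72 that correlate with the log2 processed signal at r of 0.9999 or more. Its normalization is not given in the sources used here. Flags and positions in the deposited files were taken unchanged.

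Control and outlier-flagged spots were left out, and the log2 intensity minus the 75th percentile of the array was averaged over spots. A probe entered the test if all unflagged arrays of 1 genotype or more had it well above background and each genotype had 2 or more values (28301 probes). Each of 18975 genes was represented by its brightest probe. Symbols of other genes came from a GRCm38.p6 RefSeq table. Genotypes were compared in limma 3.58.1 (R 4.3.3). P-values were adjusted by Benjamini-Hochberg over the whole gene table, or over all probes in the probe fit, and adjusted p under 0.05 was called. These steps were tested on simulated data. Ratios of partner subunits used an exact permutation test. Values per array are given for Psma8, the immunoproteasome subunits, their partners and the 2 genes of smallest p in each subcomplex, and for others where 1 array stood apart or a list gene is discussed. Of each other list, called genes or else the 2 of smallest p are named, and a few more; 1 list gene is not reported here. The members and lists were chosen with earlier results of these data known. No mm9 annotation or protein sequence was used here, and Paaf1, H2-D1, Zbtb16, Sohlh1, Insl3 and Hbb-b1 of the lists were not matched by symbol.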

Additional observations from a re-analysis of the deposited data

How the results depend on the processing

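Over 21 settings the count of called proteasome genes stayed at 0 except for 1 higher gene, Psmg2, under variance trend with robust fitting, and again 1 at adjusted p under 0.1. Replicate numbers did not pair the samples (correlations of deviations -0.03, -0.03 and 0.16). With the replicate block 0 proteasome genes passed in limma (3 at an unadjusted p under 0.05), and over all genes 0 were higher and 2 lower. Over all genes the 230 higher and 237 lower became 2 and 6 when dim probes stayed in, 125 and 150 when probes of a gene were averaged, 132 higher when each probe was kept apart, 691 and 579 under variance trend, 807 and 664 under array weights, 30 and 49 when slide was a block, 5 and 16 on slide 1 alone, 959 and 908 at adjusted p under 0.1, and 0 to 463 and 2 to 358 when 1 array was left out. In the ubiquitin list 1 gene passed higher on slide 1 alone (0 to 1 with 1 array left out), and in the list of regulators 1 passed lower with every probe on its own. The median of all members, 0.03, was 0.01 with quantile normalization or the deposited table and 0.02 to 0.04 with 1 array left out. For the alpha ring it was 0.03 with every probe on its own (left out: 0.03 to 0.06). For the beta ring it was 0.04 with normexp, quantile normalization or the deposited table (0.03 to 0.06). The ATPase median of 0.02 became -0.02 with normexp, -0.01 with quantile normalization, the deposited table or the mean of probes, 0.01 with every probe, 0.03 with array weights and 0.05 on slide 1 (-0.001 to 0.04). The other base subunits gave -0.02 with normexp, 0.04 with the mean of probes, 0.02 with every probe and 0.03 on slide 1 (-0.01 to 0.02). The lid gave 0.02 with normexp, quantile normalization, the deposited table, the mean of probes or every probe, 0.01 with array weights and 0.003 on slide 1 (-0.01 to 0.03). The base chaperones gave 0.04 with normexp, the mean of probes or every probe (0.06 to 0.11), the activators 0.09 with normexp (0.03 to 0.07), and the core chaperones -0.05 with normexp or on slide 1 (-0.07 to -0.04). The shift of Psma8 against Psma7 turned to -0.04 on slide 1 (-0.03 to 0.11 with 1 array left out). Over the settings with 1 value per gene, 16 of 47 members changed sign at least once and 31 did not. Of those with values per array, the ones that turned were Psma7 (-0.02 with normexp, -0.03 with the mean of probes, -0.01 to 0.03), Psma8 (-0.001 to 0.11), Psmb6 (-0.01 with quantile normalization, -0.02 with the deposited table), Psmb10 (0.05 on slide 1, -0.08 to 0.03) and Psmd2 (-0.02 with normexp, -0.005 with quantile normalization, -0.004 with the deposited table). The others were Psma2, Psma3, Psma4, Psmc2, Psmc3, Psmc5, Psmd4, Psmd5, Psmd6, Psmd11 (-0.06 without wild-type replicate 3) and Psmd13 (-0.09 without it). With TGANNNNGC in place of TGACNNNGC 23 genes held the motif, in 58.1% of their windows and 41.3% of all. The cause of these moves was not tested. The lowest signals well above background were 29.6 to 35.3 per array, and for the 6 untested probes no difference is given.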

Other observations

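Other lists were measured on the same arrays. Stra8, a gene of cells entering meiosis, read 6199, 6231 and 6188 in knockout and 9401, 7585 and 8063 in wild type, a difference of -0.42 (limma adjusted p = 0.058) without overlap, and Uchl1 was at -0.19 (0.11). The whole list of 5 tested spermatogonia genes had a median of -0.06 with 2 above 0, and its other members were Gfra1 at 0.02, Kit at 0.03 and Id4 at -0.06. The 9 Sertoli cell genes had a median of 0.01, with Rhox5 at 0.26 (0.060) and Fshr at -0.19 (0.12). The 6 Leydig cell genes had a median of -0.01, with the steroid enzyme gene Cyp11a1 at -0.25 (0.21) and Hsd3b6 at 0.31 (0.44). Of 6 peritubular and endothelial genes 1 was above 0, and the smooth muscle gene Acta2 was at -0.17 (0.13) and Tek at 0.13 (0.37). Among the spermatid genes Spaca1 was at 0.15 (0.15), Crem at 0.12 (0.16), Odf1 at 0.29 (0.13) and Oaz3 at 0.16 (0.28). In the red cell list Alas2, the heme synthesis enzyme gene, rose by 0.53 (limma adjusted p = 0.039), from 2962, 3510 and 3315 to 4655, 4612 and 4795. That call was lost when slide was a block (0.062) and also without knockout replicate 1, 2 or 3 or wild-type replicate 1 (0.089 to 0.15). The other tested genes of this list were Hba-a1 at -0.25 and Slc4a1 at -0.23, so that 1 of 3 was above 0 and the median was -0.23. The part of these cells in the proteasome values was not tested.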
